A study of Homo sapiens with 2 samples.

Results

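The BCL2 family and the caspases control whether a cell survives or dies by apoptosis. The 9 genes described here are BCL2, BCL2L1, MCL1, BAX, BAK1, BCL2L11, APAF1, CASP9 and CASP8, taken by gene name from the 62704 genes listed in each of the 2 libraries, and all 9 were present in both. The question put to the data was how transcripts of survival and death genes were balanced in progenitors, neurons and barcodes with choroid plexus markers.

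In the mitochondrial route of apoptosis, BCL2, BCL-XL (the product of BCL2L1) and MCL1 hold the pore-forming proteins BAX and BAK1 in check. BH3-only proteins such as BIM, the product of BCL2L11, bind the survival proteins and release the pore formers. Cytochrome c then leaves the mitochondria and joins APAF1 into the apoptosome, which activates caspase-9, whereas caspase-8 acts at death receptors on the cell surface. Developing cortex is known for apoptosis of both progenitors and young neurons, and much of this control acts on proteins, which were not measured.

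The study grew cerebral organoids, brain-like tissues from the human embryonic stem cell line H9, and counted transcripts per barcode with combinatorial split-pool barcoding. The cells library pooled control organoids (CO) of days 45, 55 and 70, organoids dissociated at day 45 and reaggregated (DISS) of days 48, 55 and 70, and organoids freed from Matrigel at day 13 and embedded in 3% agarose (CONS) of day 55. The nuclei library came from day 45 and, per the study's methods, was made from whole CO and from their single-cell suspensions, although its label also names embedded organoids. All groups share the H9 line and the same commercial organoid medium kit. The deposited metadata give 1 sample name to all barcodes of a library, so conditions and days could not be separated, each library counts as 1 sample, and no test between groups was possible. Intervals are 95% exact intervals of counts and cover counting error only; SD values are between sub-libraries of the same material and measure technical spread.

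Limits of over 500 genes, over 1000 transcripts and no more than 20% mitochondrial RNA left 20178 barcodes in the cells library (median 2615 transcripts) and 14228 in the nuclei library (median 3890). The transcript limit fell within a continuum, with 1606 cells in the 100 transcripts just above it and 2164 barcodes in the 100 just below. In the cells, 407 barcodes above 50000 transcripts held 28.5% of all kept transcripts, and 99 kept barcode names occurred in both libraries. Clusters were built without the 9 genes and without the other apoptosis genes, and were named from fixed markers. Progenitor-like clusters (radial glia or dividing markers) held 6329 cells and 7078 nuclei, neuron-like clusters 3527 and 4027, and choroid plexus-like clusters 629 and 397. Clusters named as dividing held 4436 of the progenitor-like cells but only 2127 of the progenitor-like nuclei, so this class differed in makeup between the libraries. The 11 choroid plexus markers were used by the naming rule itself, so their sums are a description only. They came to 17638 CPM (counts per 1000000 transcripts of the class) in choroid plexus-like cells against 641 in progenitor-like cells. In nuclei they came to 29783 against 170. HTR2C alone gave 11255 CPM of the sum in choroid plexus-like cells and 26617 in choroid plexus-like nuclei. None of the 11 was at 0 in choroid plexus-like or in progenitor-like barcodes. Motile cilium genes such as TEKT1, CROCC2 and DNAAF1 led the larger choroid plexus-like cluster of cells and the cluster of nuclei. Some clusters had markers of more than 1 type. The progenitor-like class of nuclei included cluster 18, with 255 barcodes led by PAX3, ZIC1 and WNT3, which also passed the cortical hem markers RSPO2 and LMX1A, whereas cluster 12 of cells, likewise led by PAX3, was named cortical hem and left out. Cluster 6 of cells, 116 barcodes named as dividing, also passed the neuron markers MAPT, GRIA2 and NEUROD6. Of the 3527 neuron-like cells, 2012 came from cluster 19, which passed on 3 neuron markers (NEUROD6, BCL11B and RBFOX3) and shared the leading genes KCTD16 and ADARB2 with the intermediate progenitor-like cluster 18. Cluster 0, with 1459 barcodes, passed 11 neuron markers, stayed unnamed and was outside the class, and its BCL2 was 157 CPM. Cluster 5, with 2053 barcodes, passed 2 radial glia and 4 neuron markers, stayed unnamed and was outside every class. Markers of other types were also counted in each class. The 15 neuron markers came to 2182 CPM in progenitor-like cells, 5483 in neuron-like cells and 1073 in choroid plexus-like cells. The study describes DISS and CONS cells of mixed identity, with radial glia and neuron markers in the same cell. Whether these counts were foreign RNA or the barcodes' own was not tested. Their part in the values below was examined only by subtracting background RNA.

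The 9 gene models, in GRCh38 coordinates of the GENCODE v44 annotation, differ greatly in size. BCL2 covers chr18:63123346-63320128 on the minus strand, a span of 196.8 kb, and BCL2L1 covers chr20:31664452-31723989, also on the minus strand. MCL1 lies at chr1:150560895-150579738, BAX at chr19:48954815-48961798 and BAK1 at chr6:33572547-33580293. BCL2L11 lies at chr2:111119378-111168444, APAF1 at chr12:98645290-98735433, CASP9 at chr1:15490832-15526534 and CASP8 at chr2:201233443-201361836. A total of 8 of the 9 genes, all but BAX, overlap a gene on the opposite strand, for example ANKS1B at APAF1 and MIR4435-2HG at BCL2L11, and the counting of strand is not given in the sources used here, so reads of such partners could not be told apart. BCL2, MCL1 and CASP8 also overlap genes on their own strand, such as ADAMTSL4-AS1 at MCL1, where strand alone would not tell reads apart. The counts are not corrected for length, so levels of different genes are ordered here only per length. Shares and ratios of transcripts of different genes, such as the survival share below, carry the effect of length and are read only between classes. Per exonic kb, over all kept cells, the survival genes led with BCL2L1 at 24.0, BCL2 at 18.0 and MCL1 at 17.0 CPM per exonic kb, followed by BAX at 5.44, APAF1 at 4.44, BCL2L11 at 2.16, CASP9 at 2.13, BAK1 at 1.59 and CASP8 at 0.720. In nuclei BCL2 came first at 24.1, then BCL2L1 at 20.4 and MCL1 at 7.79. The order depends on the length used. Per kb of the whole gene span, MCL1 led in cells at 5.61, before BAX at 2.02, BCL2L1 at 1.69 and BCL2 at 1.15, and in nuclei MCL1 at 2.57 came before BCL2 at 1.54, BCL2L1 at 1.44 and BAX at 1.16. MCL1 was 0.458 times as high in nuclei as in cells and CASP8 0.295 times, whereas BCL2 was 1.34 times as high; the libraries also differ in days and conditions, so compartment and sample cannot be told apart.

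The share of survival genes among the transcripts of the 9 genes was nearly flat over the classes. In cells it was 85.1% (84.7 to 85.4) in progenitor-like, 83.7% (82.8 to 84.6) in neuron-like and 83.7% (82.5 to 84.8) in choroid plexus-like barcodes, with SDs over 8 sub-libraries of 0.413, 2.42 and 2.65 percentage points. In nuclei it was 86.3% (85.8 to 86.8), 85.2% (84.2 to 86.1) and 87.4% (85.9 to 88.8). Background barcodes of 10 to 100 transcripts gave 84.3% in cells and 86.6% in nuclei, so the classes lay close to free RNA on this measure. Over the 47 wells of the first barcoding round with at least 100000 kept transcripts, the share ranged from 74.1% to 93.1% with a median of 83.7%. The organoid, batch and condition of each well are not given, so wells here and below are not counted as replicates. The 12 wells of nuclei lay closer together, from 85.7% to 87.9%.

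Under this flat total the makeup of the survival transcripts differed between classes. BCL2 made up 58.7% of survival transcripts in progenitor-like cells, 45.4% in neuron-like and 32.9% in choroid plexus-like cells, while BCL2L1 made up 17.5%, 33.3% and 37.5%. The order was the same in nuclei, where BCL2 accounted for 75.9%, 48.8% and 44.6% and BCL2L1 for 13.5%, 35.5% and 43.5%. With BCL2 left out, the survival share was 70.2% (69.6 to 70.9) in progenitor-like, 73.7% (72.3 to 75.004) in neuron-like and 77.5% (75.9 to 78.9) in choroid plexus-like cells, and 60.4% (59.2 to 61.6), 74.6% (73.0 to 76.1) and 79.4% (77.0 to 81.6) in nuclei. Neighbouring intervals in this order did not overlap in either library. They cover counting error only, and no SD between sub-libraries was computed for this share. Inside the progenitor-like class the libraries differed. The share without BCL2 was 71.2% in dividing and 66.7% in non-dividing cells, but 57.4% in dividing and 62.4% in non-dividing nuclei. The choroid plexus-like clusters of cells differed, however, with 78.8% (77.1 to 80.3) in cluster 15 and 70.1% (65.7 to 74.2) in cluster 20, the latter at the progenitor-like level. Within wells, choroid plexus-like barcodes had the higher share without BCL2 than progenitor-like ones in 10 of 10 wells of cells and 10 of 10 of nuclei; neuron-like barcodes had it in 12 of 12 wells of nuclei but in only 16 of 27 wells of cells. Choroid plexus-like barcodes exceeded neuron-like ones in 5 of 8 wells of cells and 8 of 10 of nuclei.

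**Figure D1:**
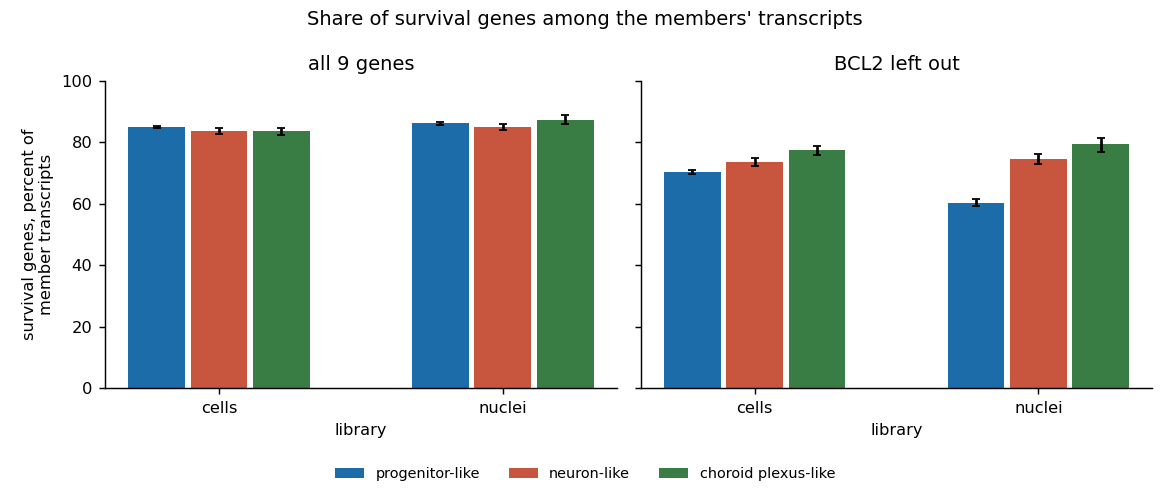
Bars give survival genes (BCL2, BCL2L1, MCL1) as a percentage of the transcripts of all 9 genes (left) and of the 8 genes without BCL2 (right), by library and class, with 95% exact binomial intervals. All bars on the left lie between 83.7% and 87.4%, whereas on the right they run from 60.4% in progenitor-like nuclei to 79.4% in choroid plexus-like nuclei, in the same order of classes in both libraries.

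BCL2, the founding survival gene of the family, was highest in progenitors. Its level was 299.5 (295.3 to 303.8) CPM in progenitor-like cells, 144.8 (139.3 to 150.5) in neuron-like and 149.7 (141.3 to 158.6) in choroid plexus-like cells, with SDs between sub-libraries of 20.6, 26.8 and 26.9. In nuclei the levels were 409 (402 to 416), 117 (112 to 122) and 186 (174 to 200.1). The neuron-like level was thus 0.484 times (0.464 to 0.504) the progenitor-like level in cells and 0.287 times (0.274 to 0.300) in nuclei. The size of the difference in cells moved with depth. In cells of 1000 to 2000 transcripts neuron-like and progenitor-like levels were 218 and 266, a ratio of 0.822 (0.734 to 0.921), and at 2000 to 5000 they were 193 and 272, a ratio of 0.708 (0.639 to 0.784), both within 1.5-fold. These strata held 1805 and 879 of the 3527 neuron-like cells. At 5000 to 10000 transcripts the ratio was 0.361 and above 10000 it was 0.402, whereas in nuclei it lay between 0.269 and 0.310 in the 4 strata. The lower level in neurons was also seen within wells, in 25 of 27 wells of cells and 12 of 12 wells of nuclei. Progenitor-like wells of nuclei ran from 303 to 587 with a median of 444, and neuron-like wells from 98.2 to 156 with a median of 116, so the classes did not overlap there. In the 27 wells of cells they did, at 131 to 499.8 (median 289.8) against 58.9 to 258 (median 137).

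**Figure D2:**
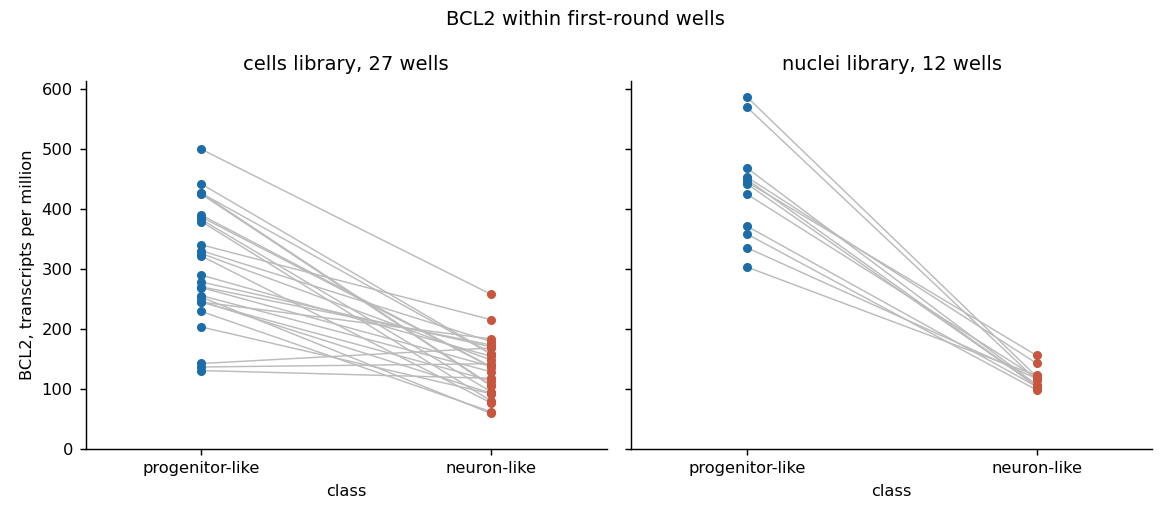
Each grey line joins BCL2 (CPM, vertical axis) of progenitor-like and neuron-like barcodes of the same first-round well, with 27 wells of cells and 12 of nuclei. The line slopes down to the neuron-like point in 25 wells of cells and in all 12 wells of nuclei.

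Choroid plexus-like barcodes stood at 0.4999 times (0.471 to 0.530) the progenitor level of BCL2 in cells and 0.456 times (0.424 to 0.490) in nuclei, and were lower in 9 of 10 and 10 of 10 wells. With coarser clusters (Leiden resolution 0.5) the choroid plexus-like class was larger, at 1692 cells and 1323 nuclei. There the BCL2 ratios were 0.719 and 0.853, so the call was lost in both libraries. It was also lost in nuclei with classes from marker numbers.

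Neuron-like cells were not uniform in BCL2. Cluster 1, led by GRIK3 and OPCML with a median of 7241 transcripts, had 118 CPM, whereas cluster 19, with a median of 1502 transcripts, had 240. Over depth, neuron-like cells above 10000 transcripts had 119 CPM. Neuron-like nuclei had 117 CPM at 1000 to 2000 transcripts and 115 above 10000. The part of depth in the level of cells was not tested further.

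BCL2L1, which encodes BCL-XL, was higher in the choroid plexus-like class than in the other classes. Its level in cells was 89.6 (87.2 to 91.9) in progenitor-like, 106 (102 to 111) in neuron-like and 171 (162 to 180.2) in choroid plexus-like barcodes, and in nuclei 72.7 (69.7 to 75.9), 85.2 (81.1 to 89.5) and 182 (169 to 196). Relative to progenitors this was 1.91 times (1.80 to 2.02) in choroid plexus-like cells and 2.504 times (2.30 to 2.72) in nuclei. At a coarser clustering (Leiden resolution 0.5) the ratio in cells was 1.47, under the limit for a call. The wells gave the same direction in 9 of 10 cases in cells and 10 of 10 in nuclei. Choroid plexus-like wells of nuclei, at 126 to 248, lay wholly above progenitor-like wells, at 45.8 to 90.5, while in cells the ranges of 76.3 to 295 over 11 wells and 48.7 to 147 over 40 wells overlapped. Neurons exceeded progenitors only slightly, by 1.19 times in cells and 1.17 times in nuclei, under the 1.5-fold limit used for a call. A total of 31.2% of the transcripts of choroid plexus-like cells came from 26 barcodes above 50000 transcripts, and the median mitochondrial share of the class was 7.09% against 2.69% in progenitor-like cells. In the 4 bins of mitochondrial share up to 20%, BCL2L1 as CPM of non-mitochondrial transcripts was 166 to 244 in choroid plexus-like and 73.3 to 94.99 in progenitor-like cells.

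MCL1, a survival gene whose protein turns over rapidly, was lower in neurons than in progenitors. In cells its level was 122 (119 to 124) in progenitor-like, 67.8 (64.0 to 71.8) in neuron-like and 135 (127 to 143) in choroid plexus-like barcodes, and in nuclei 57.2 (54.5 to 59.96), 37.8 (35.1 to 40.7) and 49.7 (43.1 to 56.9). All 27 wells of cells had less MCL1 in neuron-like than in progenitor-like barcodes, as did 9 of 12 wells of nuclei. In nuclei the ratio of 0.661 fell short of the 1.5-fold limit under 6 of 13 alternatives, and in cells of 1000 to 2000 transcripts the ratio was 0.737. Choroid plexus-like levels were 1.99 times those of neurons in cells (7 of 8 wells) and 1.31 times in nuclei, within 1.5-fold and higher in only 6 of 10 wells.

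**Figure D3:**
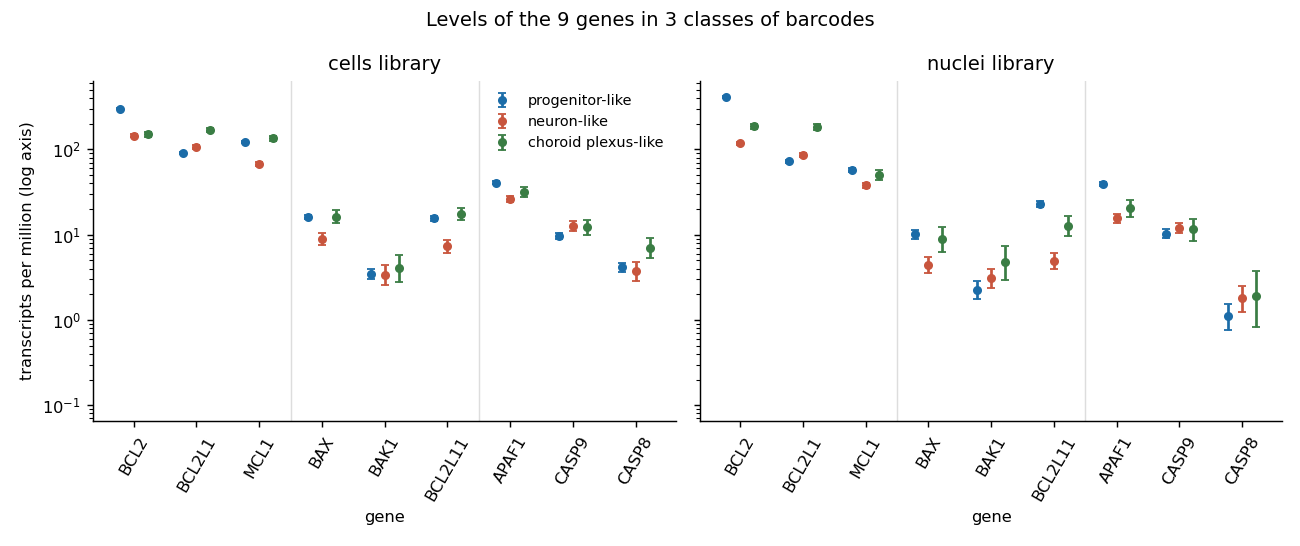
Points give the level of each gene in CPM (log axis) in progenitor-like, neuron-like and choroid plexus-like barcodes of the cells (left) and nuclei (right), with 95% exact Poisson intervals; grey lines separate survival genes, pore formers with BCL2L11, and apoptosome and caspase genes. BCL2 is highest in progenitor-like barcodes and BCL2L1 in choroid plexus-like barcodes in both libraries.

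Of the pore formers, BAX was lower in neurons than in progenitors. Its level in cells was 16.1 (15.1 to 17.1) in progenitor-like, 8.86 (7.53 to 10.4) in neuron-like and 16.3 (13.6 to 19.4) in choroid plexus-like barcodes, and in nuclei 10.0 (8.95 to 11.3), 4.42 (3.52 to 5.48) and 8.88 (6.25 to 12.2). Neurons were thus at 0.550 times the progenitor level in cells and at 0.440 times in nuclei, with the lower level in 24 of 27 and 11 of 12 wells. At Leiden resolution 0.5 the ratio in cells was 0.732, within 1.5-fold. The ratio of BCL2 to BAX transcripts was, in the order progenitor, neuron and choroid plexus, 18.6 (17.4 to 19.8), 16.4 (13.9 to 19.3) and 9.19 (7.65 to 11.1) in cells and 40.7 (36.3 to 45.8), 26.5 (21.3 to 33.4) and 21.0 (15.1 to 30.1) in nuclei; the progenitor and neuron intervals overlapped in cells, and the neuron and choroid plexus intervals in nuclei. BAK1, the other pore former, had 3.49, 3.39 and 4.11 CPM in cells and 2.27, 3.09 and 4.80 in nuclei. The intervals of BAK1 in neighbouring classes overlapped in both libraries, and its choroid plexus-like values rested on 32 and 20 transcripts. In nuclei the choroid plexus-like level was 2.11 times (1.22 to 3.52) the progenitor level and higher in 8 of 10 wells, on fewer than the 100 transcripts needed for a call.

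BCL2L11, encoding BIM, was the member furthest below the progenitor level in neurons, although in cells its interval overlapped that of BCL2 and at Leiden resolution 0.5 its ratio was 0.739, within 1.5-fold and above the ratios of BCL2 and MCL1. It measured 15.5 (14.5 to 16.5), 7.33 (6.13 to 8.71) and 17.6 (14.8 to 20.8) in progenitor-like, neuron-like and choroid plexus-like cells, and 22.7 (21.0 to 24.5), 4.90 (3.95 to 6.01) and 12.7 (9.53 to 16.6) in nuclei. The neuron-like level was 0.474 times (0.392 to 0.570) that of progenitors in cells and 0.216 times (0.172 to 0.269) in nuclei, and it was lower in 20 of 27 and 12 of 12 wells. In choroid plexus-like barcodes the pooled ratio to progenitors was 1.14 (0.943 to 1.36) in cells and 0.560 (0.415 to 0.742) in nuclei. In cells 5 of 10 wells were higher and 5 lower. The ratio in cells was 0.998 without the largest well of each class. It was 0.559 (0.221 to 1.18) at 5000 to 10000 transcripts, against 1.20 to 1.32 in the other strata. In nuclei 9 of 10 wells were lower. The call in nuclei stayed under 10 of 13 alternatives, and the ratio was 0.795 at Leiden resolution 0.5.

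APAF1, the scaffold of the apoptosome, was also highest in progenitors. Its level was 40.5 (39.0 to 42.1), 26.2 (23.9 to 28.7) and 31.6 (27.7 to 35.8) in the same order of classes in cells, and 38.9 (36.7 to 41.2), 15.6 (13.8 to 17.5) and 20.4 (16.3 to 25.2) in nuclei. Neuron-like wells were lower than progenitor-like wells in 24 of 27 and 12 of 12 cases. The ratio in cells, 0.647, stayed past 1.5-fold under 9 of 13 alternatives and reached 0.742 at Leiden resolution 2. CASP9, the caspase that APAF1 activates, did not share this pattern. It measured 9.74 (8.98 to 10.5), 12.7 (11.1 to 14.5) and 12.3 (9.98 to 15.04) in cells and 10.3 (9.17 to 11.5), 12.1 (10.6 to 13.8) and 11.5 (8.49 to 15.3) in nuclei, and no ratio between classes reached 1.5. CASP8 was the scarcest member per exonic kb, although in cells BAK1 had fewer transcripts in each class. In cells it stood at 4.14, 3.72 and 7.06, with the choroid plexus-like level 1.70 times (1.25 to 2.29) that of progenitors on 55 transcripts. That ratio was 1.38 with classes taken from marker numbers and 3.86 as a mean over barcodes. In nuclei 33, 34 and 8 transcripts were too few for a call. CASP8 levels in background RNA, at 5.01 CPM in cells and 5.04 in nuclei, were above those of progenitor-like and neuron-like barcodes in both libraries.

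Members at least 1.5 times apart were counted among those with at least 100 transcripts over the 2 classes compared. This minimum sums both classes, so a member low in the smaller class can pass on the larger one. BCL2L11 in nuclei, for example, had 92 neuron-like and 680 progenitor-like transcripts. A member higher in the smaller class can fall short, as BAK1 did in choroid plexus-like against progenitor-like nuclei, at 2.11 times on 20 and 68 transcripts. The counts of lower and higher members are thus not on an equal footing. The same minimum applied to all genes and to the other apoptosis genes below. Between neuron-like and progenitor-like cells, 5 of 9 were lower in neurons (BCL2, MCL1, BAX, BCL2L11 and APAF1) and 0 higher, where 17.4% of 20163 genes were lower and 28.0% past the fold in either direction. The 5 lower in nuclei had the same names, of 8 members, against 27.7% lower and 43.7% in either direction among all genes. The median log2 ratio of the members was −0.63 in cells and −0.89 in nuclei, against −0.08 and −0.19 over all genes. For choroid plexus-like against progenitor-like barcodes, 2 of 9 members were higher in cells (BCL2L1, CASP8) and 1 lower (BCL2), with 44.6% of all genes past the fold, and in nuclei 1 of 7 was higher (BCL2L1) and 3 lower (BCL2, BCL2L11, APAF1), with 53.6%. In the lower direction alone the shares of all genes were 26.1% and 35.9%, and in the higher direction 18.5% and 17.7%, so the members were near the background. For choroid plexus-like against neuron-like barcodes, 5 of 8 were higher in cells (BCL2L1, MCL1, BAX, BCL2L11, CASP8) and 4 of 7 in nuclei (BCL2, BCL2L1, BAX, BCL2L11), none lower, where 22.5% and 22.9% of all genes were higher and 47.3% and 53.5% past the fold. The 3 comparisons share classes and are not independent of each other.

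The median gene itself was shifted in these ratios, to a log2 of −0.17 for choroid plexus-like over progenitor-like cells and −0.19, −0.32 and −0.14 for the 3 comparisons of nuclei. Centred on that median, the split of all genes past the fold changed from 41.5% to 53.9% higher in the first, and from 36.6% to 49.1% and from 33.1% to 51.6% in the comparisons of nuclei with progenitors. Among the members, centring ended the calls of APAF1 in neuron-like cells, MCL1 in neuron-like nuclei and BCL2L11 in choroid plexus-like nuclei, and brought BAK1 past the fold as higher in neuron-like nuclei.

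**Figure D4:**
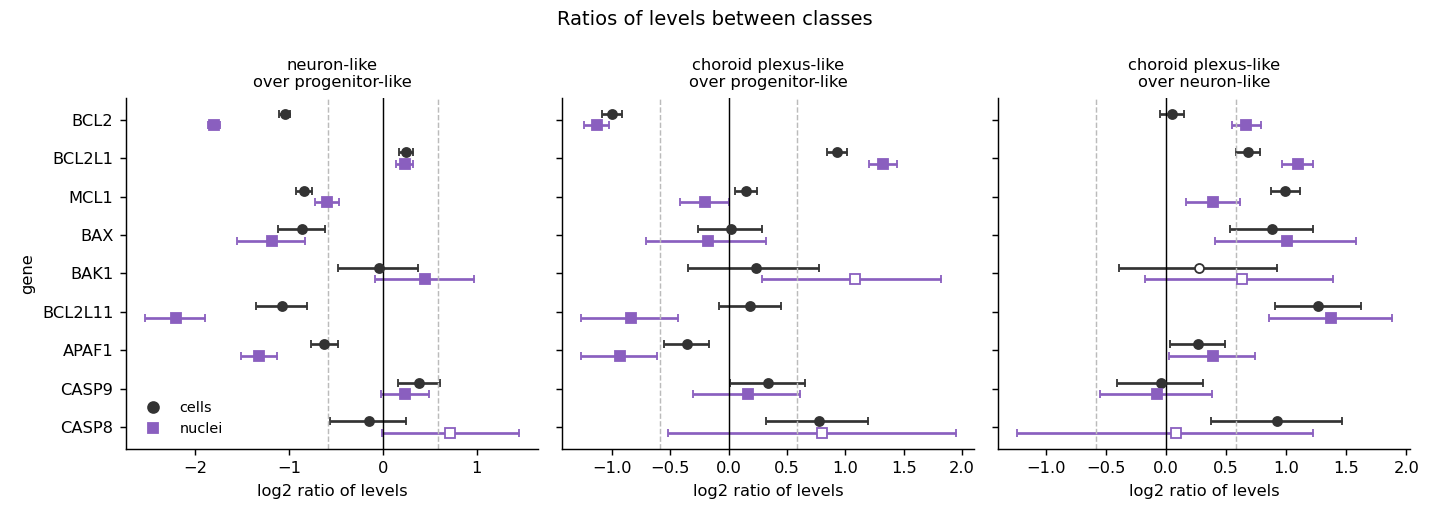
Points give the log2 ratio of levels between classes (horizontal axis) for each gene, circles for cells and squares for nuclei, with 95% exact conditional intervals; dashed lines mark a ratio of 1.5 in either direction and open symbols fewer than 100 transcripts. In the left panel BCL2, MCL1, BAX, BCL2L11 and APAF1 lie beyond the left dashed line in both libraries, while the points of CASP9 stay within the lines in all panels.

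Shares of barcodes were compared at equal depth. After each barcode was thinned to 1000 transcripts, a survival transcript was seen in 37.1% of progenitor-like, 30.4% of neuron-like and 35.1% of choroid plexus-like cells, and in 37.3%, 20.3% and 29.7% of nuclei. A death gene transcript was seen in 8.99%, 6.04% and 9.54% of cells and in 8.01%, 4.22% and 6.30% of nuclei. BCL2 alone was seen in 23.6% (22.5 to 24.6) of progenitor-like and 16.5% (15.3 to 17.7) of neuron-like cells, and in 29.2% (28.1 to 30.2) and 10.2% (9.29 to 11.2) of nuclei. Even BCL2 was thus without a transcript in most barcodes at this depth. BAK1 was seen in 0 of 629 choroid plexus-like cells at 1000 transcripts (exact upper limit 0.585%), against 28 of 629, or 4.45%, before thinning.

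Single clusters showed how the members varied inside the classes. Among clusters of at least 100 barcodes, dividing progenitors had the highest APAF1. Cluster 3 of cells, led by mitosis genes such as AURKB and KIF2C, had 62.8 (58.3 to 67.6) CPM, and cluster 6 of nuclei, led by KIF20A and CCNB1, had 74.8 (66.9 to 83.4). The latter also had the highest BCL2 of all clusters of nuclei, at 558 (536 to 581). Over all dividing against non-dividing progenitor-like nuclei, BCL2 was 480.3 against 364 and APAF1 53.6 against 29.5; in cells the differences were smaller, at 306 against 277 and 41.2 against 38.2. Cluster 17 of nuclei, led by EOMES, a gene of intermediate progenitors, had BCL2 at 527 (498 to 558) with BAX at 7.50, and its survival share of 92.6% was the highest among clusters of nuclei with at least 100 barcodes. This was not seen in cells. There the intermediate progenitor-like cluster 18, which also passed EOMES, had a survival share of 84.9% (84.1 to 85.8), against 83.9% over all kept cells. In cells, cluster 2, named as dividing and led by SV2C and KANK4, had BCL2 at 413 (402 to 424) and BCL2L11 at 7.68 (6.28 to 9.29), with a survival share of 91.5%.

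Clusters led by genes of the response to low oxygen had low BCL2. Cluster 13 of cells, led by HK2, KDM3A and PDK1, had the lowest BCL2 of the clusters of cells with at least 100 barcodes, 80.1 (73.4 to 87.3), with BCL2L11 at 22.8 (19.3 to 26.7) and the lowest survival share among them, 70.8% (68.9 to 72.7). Its CASP9, at 18.7 (15.5 to 22.3), was above the 11.2 of all kept cells. In nuclei, cluster 0, named neuron-like but led by HIF1A-AS3, FAM162A and PDK1, had BCL2 at 88.7 (76.8 to 102), BCL2L11 at 15.1 (10.4 to 21.1) and a survival share of 74.8% (71.2 to 78.2). Only cluster 11 of nuclei, at 81.0 (72.2 to 90.5), had less BCL2. The other 4 neuron-like clusters of nuclei had BCL2L11 at 1.77 to 6.57 and survival shares of 83.5% to 87.9%.

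Cluster 7 of nuclei, 229 progenitor-like barcodes led by heat shock genes such as HSPA1B, DNAJB1 and HSPA8, had the highest BCL2L11, BAX and MCL1 of the clusters of nuclei with at least 100 barcodes. They measured 49.3 (33.5 to 69.9), 25.4 (14.5 to 41.3) and 116 (90.9 to 146), on 31, 16 and 73 transcripts, beside BCL2 at 143 (115 to 176). Its survival share was the lowest among them, 70.5% (64.9 to 75.8). CASP8 was highest in cluster 7 of cells, an unnamed cluster led by DOCK2 and RPH3A, at 12.9 (10.8 to 15.2). The choroid plexus-like cells came mostly from cluster 15, with BCL2L1 at 177 (167 to 188); cluster 20, of which 92.7% of barcodes came from 1 well and 43.2% of transcripts from 1 barcode, had 140 (120.3 to 161).

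**Figure D5:**
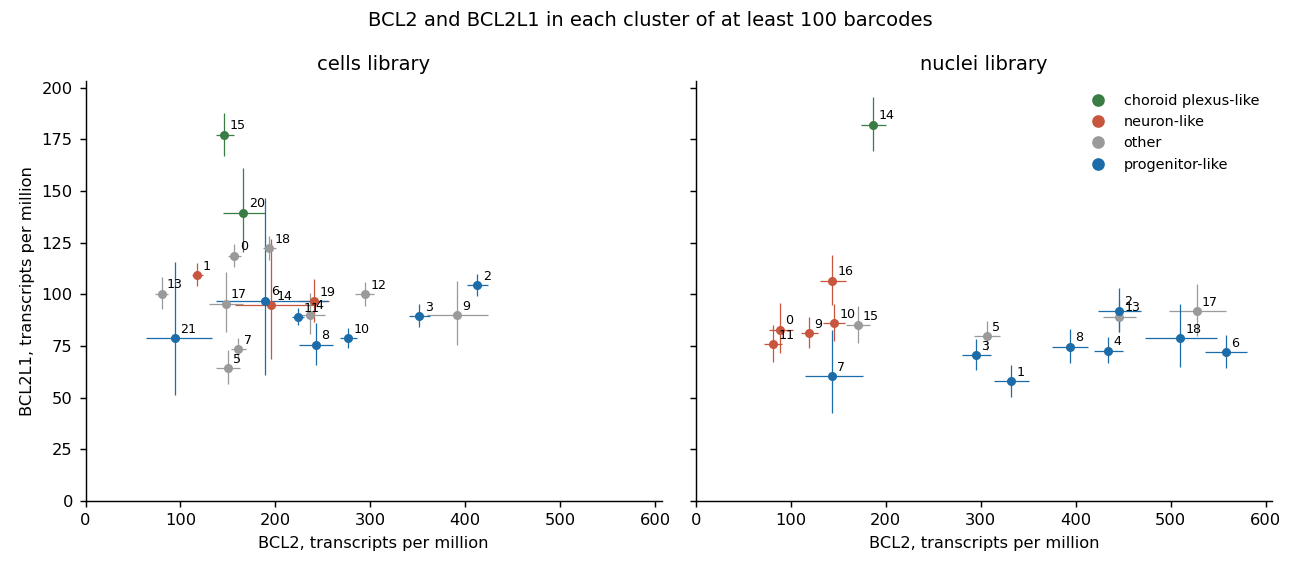
Each numbered point is a cluster of at least 100 barcodes, with BCL2 on the horizontal and BCL2L1 on the vertical axis (CPM, 95% exact Poisson intervals), coloured by class and grey where the cluster is in none of the 3 classes. Choroid plexus-like clusters (15 and 20 in cells, 14 in nuclei) lie at the top, at 140 to 182 for BCL2L1, while progenitor-like clusters spread along BCL2 up to 413 in cells and 558 in nuclei.

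Across the 21 clusters of cells and 18 of nuclei with at least 100 barcodes, BAX and BCL2L11 varied together, with Pearson r of log2 levels of 0.67 in cells and 0.89 in nuclei, and BAX and MCL1 with 0.53 and 0.71. Among the other pairs computed, which leave out BAK1 with CASP8, none exceeded 0.5 in both libraries. Among 11671 genes with at least 500 transcripts in each library, those most like BCL2 were TONSL (0.87 in cells and 0.87 in nuclei), PTOV1-AS1, PLEKHG4B, ADGRV1 and DNAH14, and those most like BCL2L1 were BBOF1 (0.75 and 0.76), COLQ, SH3BGRL2, OSCP1 and CCDC146. MCL1 was most like ECI1 (0.79 and 0.87), FOS, DMRT3, RBM23 and DDX39B. BAX was most like ILRUN (0.86 and 0.87), DNAJC8, RORA-AS1, WASF2 and RPL41, and BCL2L11 most like MAP3K1 (0.85 and 0.91), ATE1, WASF2, SPART and ADAM9. APAF1 was most like KCTD9 (0.81 and 0.87), BCKDHB, ZFX, ERLIN1 and MGME1, and CASP9 most like C12orf76 (0.61 and 0.62), FAM161B, ZNF555, SGSM3 and CALM3. BAK1 and CASP8 had too few transcripts for this. These values are descriptions across clusters, which share libraries and differ in depth. The share of all genes that reach such values with BAX is not given here, so whether these pairs are unusual is not known. Some points also rest on few transcripts. The 5 neuron-like clusters of nuclei together held 83 BAX and 92 BCL2L11 transcripts, and cluster 6 of cells held 82 transcripts of all members together.

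Of 45 other apoptosis genes, most of those apart between neurons and progenitors were lower in neurons. In cells 12 were lower and 2 higher of 38 with enough transcripts, and in nuclei 12 lower and 1 higher of 32. Over all genes 17.4% were lower and 10.6% higher in cells, and 27.7% and 16.0% in nuclei, where the list as a whole was thus not past the fold more often than other genes. The median log2 ratio of the list was −0.23 in cells and −0.33 in nuclei, against −0.08 and −0.19 over all genes. Among the lower genes were the ubiquitin ligase MDM2, at 0.647 times the progenitor level in cells and 0.551 times in nuclei, the death receptor TNFRSF10B (0.522 and 0.323) and the BH3-only genes BMF (0.314 and 0.157) and HRK (0.357 and 0.200). BIRC5, a survival gene that also acts in cell division, stood at 0.210 and 0.0327 times. The death receptor TNFRSF21 went the other way, at 2.14 and 4.05 times the progenitor level.

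Against progenitors, choroid plexus-like barcodes had 8 of 37 of these genes higher and 6 lower in cells, and 5 of 32 higher and 11 lower in nuclei. Among all genes 18.5% were higher and 26.1% lower in cells and 17.7% and 35.9% in nuclei, so the list was near or below the background except for the slightly larger share higher in cells. The TNF receptor TNFRSF1A was 5.41 times (4.19 to 6.95) as high in cells and 2.36 times (1.63 to 3.35) in nuclei, and BMF 2.22 and 2.09 times. BID, which links caspase-8 to the mitochondria, was at 0.409 and 0.202 times, HRK at 0.451 and 0.220 and BIRC5 at 0.304 and 0.147. Against neurons they had 9 of 31 higher and 3 lower in cells and 6 of 25 higher and 3 lower in nuclei, where 22.5% and 22.9% of all genes were higher and 24.8% and 30.5% lower. Examples were MDM2 at 2.10 and 1.88 times, RIPK1 at 1.95 and 1.73 and TNFRSF10B at 1.85 and 2.53. Lower than in neurons were BID at 0.384 and 0.193 times and TNFRSF21 at 0.651 and 0.542.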

How the data were processed

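Per the labels and the study's methods, the authors split the reads into sub-libraries and aligned them to GRCh38 with the kit maker's (Parse Biosciences) pipeline. The authors deposited unfiltered raw counts of transcripts per barcode and gene. Doublets were not removed: scrublet marked 0 barcodes in either library and so did not work here, and leaving out the highest scores (5% of cells, 3% of nuclei) was an alternative.

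Counts were scaled to 10000, and 2000 variable genes, 30 principal components, 15 neighbours and Leiden resolution 1 gave clusters (scanpy 1.11.5, igraph 0.11.9, seed 0). A name needed 3 markers at 1.5 times the other barcodes and in 25% of the cluster. Of several passing lists, the one with the largest share passing was taken. A cluster stayed unnamed if its 10 leading genes held more markers of another list than of its own. It also stayed unnamed if none were its own and its median transcripts were below the library median divided by 3. Clusters 13 and 15 of nuclei (833 and 790 barcodes), which passed choroid plexus and neuron markers, stayed unnamed, as did cluster 0 of cells. Levels pool all transcripts of a class. Binomial, Poisson and conditional ratio intervals (95%, scipy 1.17.1) cover counting error only. Members, marker lists and pathway genes were chosen with earlier results of these data known; the naming thresholds and the 100000-transcript well minimum were set during the analysis. Of the 45 pathway genes, up to 12 are named, those at least 1.5 times apart in the same direction in both libraries. Some of these are not reported here. Likeness names the 5 genes with the highest lower r of both libraries. Genes said to lead a cluster are among the 10 with the largest fold and were picked after their values were seen. On counts simulated with 200 genes changed 3-fold, the ratio step recovered 97.0% in neuron-like over progenitor-like cells (20163 genes) and 95.0% in nuclei (15584 genes). It called 0.99% and 0.36% of unchanged genes there, and up to 2.76% in choroid plexus-like over progenitor-like cells. The simulated counts had counting error only, with no spread between wells or barcodes. Recovery of changes near 1.5-fold was not simulated.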

Additional observations from a re-analysis of the deposited data

Results flagged for a closer look

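The pooled ratios of BCL2L11 in choroid plexus-like against progenitor-like barcodes lay on opposite sides of 1, at 1.14 in cells and 0.560 in nuclei. The difference was not tested, and the interval in cells includes 1. In cells no direction held. Choroid plexus-like barcodes were higher in 5 of 10 wells and lower in 5, with well medians of 13.5 against 17.9, and without the largest well of each class the ratio was 0.998.

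Barcodes above 20% mitochondrial transcripts were outside every comparison, and members were counted in them too. In 95 such cells, as CPM of non-mitochondrial transcripts, BCL2 was at 117, BCL2L1 at 214, MCL1 at 178, BCL2L11 at 14.1, BAX at 20.2, BAK1 at 8.08, APAF1 at 32.3 and CASP8 at 12.1. In 28 such nuclei BCL2L1 was at 269.5, on 10 transcripts. BCL2 was lower and BCL2L1 higher in the cells above 20% than in cells at 2% to 5%. Among kept cells at 10% to 20% the choroid plexus-like class made up 41.4% of barcodes, against 1.99% at 2% to 5%. Barcodes above 20% were not clustered, so their classes are not known, and the cause of their levels was not tested.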

How the results depend on the processing

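Of the 26 member ratios past 1.5 with at least 100 transcripts, all kept their direction under the 13 alternatives that gave each a value, and 14 also stayed past 1.5 under each. The share of all genes that did so is not given here. No paired analysis was possible because the cells and nuclei libraries are 1 sample each and have no replicates to pair. Classes of the same library were paired by well, by counting wells and with no test. The survival share left its interval as follows. With more than 5000 transcripts it was 82.5% in neuron-like cells and 85.7% in progenitor-like nuclei. At Leiden resolution 0.5 it was 85.8% in progenitor-like and 82.3% in neuron-like cells and 86.8% in progenitor-like nuclei, and at resolution 2 85.6% and 80.6% in cells. With classes from marker numbers it was 84.0% in progenitor-like, 82.4% in neuron-like and 81.9% in choroid plexus-like cells and 86.9% in progenitor-like nuclei. Without the largest well of each class it was 85.7% in progenitor-like and 84.9% in choroid plexus-like cells. The counts of members below apply the minimum of 100 transcripts anew to the barcodes of each alternative. The ratios above had no such minimum there, so a ratio past 1.5 can go uncounted. Members past the fold between neuron-like and progenitor-like cells numbered 2 at resolution 0.5, 3 with marker numbers and 2 at a fold of 2. Choroid plexus-like against progenitor-like barcodes had 1 at a fold of 2 in cells, and 2 with marker numbers and 2 at a fold of 2 in nuclei. Against neurons there was 1 with marker numbers and 1 at a fold of 2 in cells, and 2 above 5000 transcripts in nuclei. The causes were not tested. Within strata of depth, BCL2 in neuron-like over progenitor-like cells was past 1.5-fold only above 5000 transcripts. After subtracting background RNA, an upper estimate of 6.20% to 35.1% of a class, BCL2 in choroid plexus-like cells was 0.317 times the progenitor level. That estimate took markers of another type as foreign RNA. The limit of genes over transcripts below 0.9, 1 of the 13 alternatives, removed no barcode and so could not change a ratio. A limit of 50000 transcripts, chosen after seeing the data, moved none of these shares or counts out of range. CASP8 in nuclei had too few transcripts for a call, and its ratio of choroid plexus-like to progenitor-like barcodes, 1.74 on 41 transcripts, turned to 0.373 with marker numbers.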
